A study of Homo sapiens with 4 samples.

Results

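The genes described here are the DNA replication and S-phase genes of HK-2 cells, a list of 48 genes chosen by name for their role in origin licensing, origin firing, the replication fork, nucleotide supply or E2F control. Of the 48, 47 could be assigned reads, out of 34080 genes with matched transcripts, and all 47 passed the low-count filter that left 13569 genes to be tested. UHRF1 had no matched transcript identifier and its RNA level was not analysed here. The rule uses no measured value, but the genes were chosen with earlier results of these data known.

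To see what PRCC-TFE3 changes in a renal epithelial cell, polyadenylated RNA was sequenced from HK-2 cells, a human proximal tubule line immortalised with papillomavirus genes. All cultures carried the same doxycycline-inducible (Tet-On) HA-PRCC-TFE3 construct, a tagged form of the PRCC-TFE3 fusion protein of translocation renal cell carcinoma, and grew in medium with 1.5% FCS. Doxy(-) cultures received no doxycycline and Doxy(+) cultures received 0.2 microg/ml for 24 h, with 2 libraries in each group, numbered 1 and 2. The labels do not say what the number marks, and no doxycycline-treated culture without the construct was analysed here, so the effect of the drug and that of the fusion cannot be told apart.

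Estimated reads per library ranged from 14042545 to 16618401. TFE3, whose transcripts also take reads of the fusion, was at 66.9 and 69.1 CPM (reads scaled to a library total of 1000000) in Doxy(-) against 367 and 322 CPM in Doxy(+), higher in both libraries labelled as induced. The log2 fold change was 2.34 with an SE of 0.07 (adjusted p = 4.78e-05 by edgeR). Of 9 renal epithelial markers, PAX8 (565 to 605 CPM), KRT8 (345 to 412 CPM), KRT18, CDH6, GGT1 and MME were tested, with 3 called lower (KRT8, KRT18 and CDH6) and 2 higher (GGT1 and MME) and log2 fold changes from -0.94 to 1.31, while PAX2, AQP1 and ANPEP were at or near 0. Of 6 proximal tubule transport genes, LRP2, SLC22A6 and SLC22A8 were at or near 0, CUBN, SLC34A1 and SLC5A2 were low, and the 6 summed to 2.89 to 4.11 TPM in a library. Among 6 fibroblast markers COL3A1 was at 0 and COL1A2 and PDGFRB were near 0, but LUM stood at 160 to 185 CPM and COL1A1 at 15.5 to 22.3 CPM, and the list summed to 219 and 236 TPM in Doxy(-) and 257 and 255 TPM in Doxy(+). Among 6 endothelial and blood markers CDH5 and HBB were at 0 and PECAM1, VWF and PTPRC near 0, but CD68 stood at 144 to 190 CPM and was called higher in Doxy(+), and the list summed to 175 and 189 TPM against 238 TPM in both Doxy(+) libraries. The part of these markers in the results was not tested. The TMM scaling put the median log2 fold change of all tested genes at 0.001, so the values below are relative to a centre near 0.

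A cell copies its genome once per cycle. In G1 the origin recognition complex, CDC6 and CDT1 load the MCM helicase onto origins, and at the start of S phase the kinases CDC7-DBF4 and CDK2-cyclin E let CDC45 and GINS join it as an active helicase, behind which polymerases alpha, delta and epsilon, the PCNA clamp and the RFC clamp loader build the new strands from nucleotides supplied by ribonucleotide reductase, thymidylate synthase and thymidine kinase. Transcription of many of these genes rises at the G1/S boundary under E2F factors, whereas genes of mitosis are transcribed later, in G2, under factors that act through CHR and CCAAT promoter elements.

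In Doxy(+) cells a minority of replication genes passed the test, and by small changes. RRM2, TYMS, POLE, GINS1, CDC45, RFC4, POLD1, POLD2 and MCM10 fell by 11.6% to 25.3%, GINS3 and MCM2 rose by 41.1% and 18.0%, and the other 36 genes were not called. The 9 lower genes were 19.1% of the 47, against 9.53% of all genes tested that were called lower, and the 2 higher genes were 4.26%, against 9.76% of all genes called higher (edgeR quasi-likelihood test, adjusted p under 0.05). No replication gene passed both of the limits the study used, namely that adjusted p together with a size over 1 on the log2 scale, which 1.98% of all genes passed. The count was 0 with an unadjusted p and with DESeq2 as well, and the log2 fold changes ran from -0.53 to 0.50 only.

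The direction was uneven. The log2 fold change was negative for 35 genes and positive for 12, with a median of -0.06 against 0.001 over all tested genes. In 20 genes (42.6%) both Doxy(+) libraries lay below both Doxy(-) libraries, which was so for 30.0% of all genes tested, and in 4 genes (8.51%) both lay above, which was so for 31.1%. The median position of the 47 genes, as log2 CPM over the Doxy(-) mean, was 0.02 and -0.02 in the Doxy(-) libraries and -0.06 and -0.07 in the Doxy(+) libraries, so that the shift was of the same size in both induced libraries. In a bulk sample fewer cells in S phase and less RNA per cell cannot be told apart, and no cell cycle profile was analysed here.

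**Figure D1:**
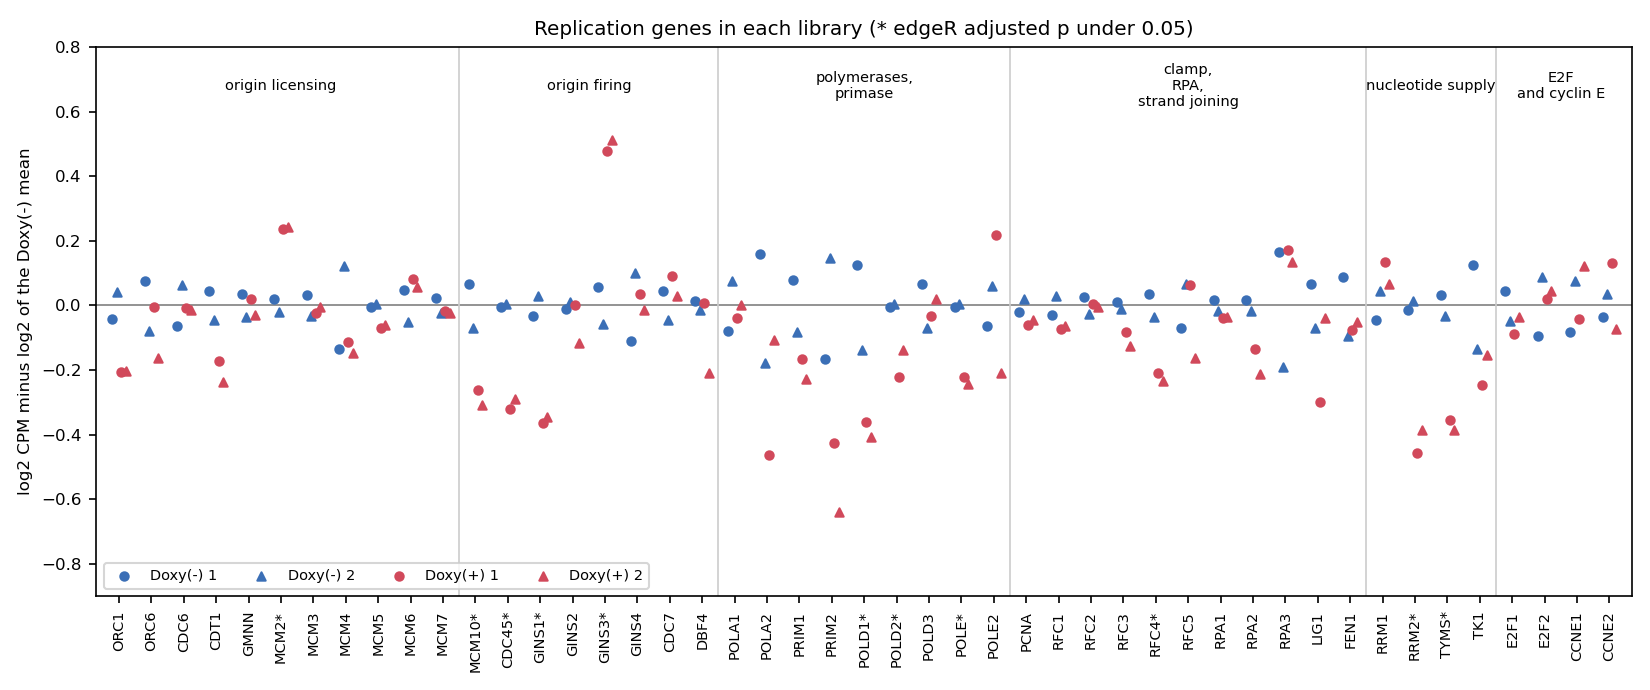
Level of each of the 47 measured replication genes in the 4 libraries, as log2 CPM minus the log2 of the Doxy(-) mean (y axis), grouped by role along the x axis, with circles for libraries numbered 1, triangles for libraries numbered 2 and an asterisk at genes called by edgeR. The Doxy(+) points of RRM2, TYMS, GINS1 and CDC45 sit below their Doxy(-) points and those of GINS3 and MCM2 above, while most genes scatter around 0.

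A replication gene had between 74.6 reads (E2F2) and 6215.7 reads (MCM7) in a library, PRIM2 apart, which was enough to bound most of the genes that were not called. Their 95% intervals had a median half-width of 0.16 on the log2 scale, and for 34 of the 36 the whole interval lay between -0.5 and 0.5. The exceptions were POLA2, the second subunit of the primase-polymerase complex, at 19.2 and 15.2 CPM in Doxy(-) against 12.5 and 16.01 CPM in Doxy(+), and PRIM2, the large primase subunit, which rested on 47.1 reads in all 4 libraries together and whose interval ran from -1.52 to 0.46. For PRIM2 a change was not detectable with so few reads, and why so few were assigned to it was not tested.

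**Figure D2:**
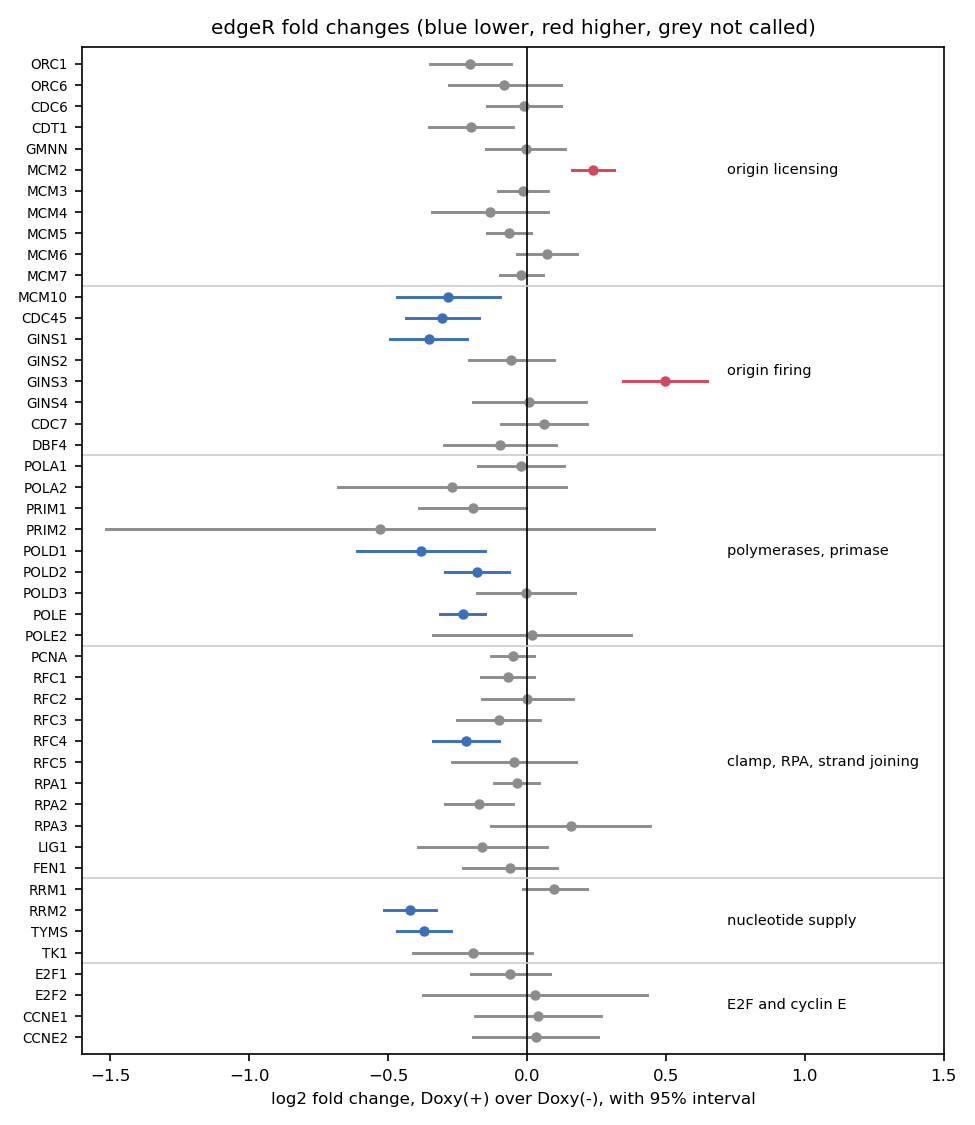
Log2 fold change of each measured replication gene, Doxy(+) over Doxy(-) (x axis), as a point with its 95% interval from edgeR, ordered by role on the y axis. Blue genes were called lower (9), red genes higher (2) and grey genes were not called (36). The widest interval is that of PRIM2.

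Although the genes act together, their RNA levels differed widely. On the per-length TPM scale PCNA, the sliding clamp, was highest with a mean of 458 TPM, the median gene was at 51.0 TPM, and E2F2 was lowest at 1.90 TPM. In single libraries PCNA stood at 454 and 465 TPM in Doxy(-) and at 455 and 459 TPM in Doxy(+), so the groups overlapped on this scale. MCM4, MCM7, TYMS, RRM2 and MCM5 followed with means of 301, 261, 241, 215 and 205 TPM. For several of these the authors' quantifier placed much of the TPM on transcripts that GENCODE does not list as protein-coding, so that the coding share was 23.9% for MCM7, 25.6% for MCM4, 40.3% for RRM2, 43.8% for TYMS and 0.53% for DBF4. Counted over coding transcripts alone the order within the helicase was MCM5 at 174 TPM, MCM3 at 138 TPM, MCM2 at 116 TPM, MCM6 at 78.3 TPM, MCM4 at 77.1 TPM and MCM7 at 62.3 TPM, which is not the order of the summed TPM.

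**Figure D3:**
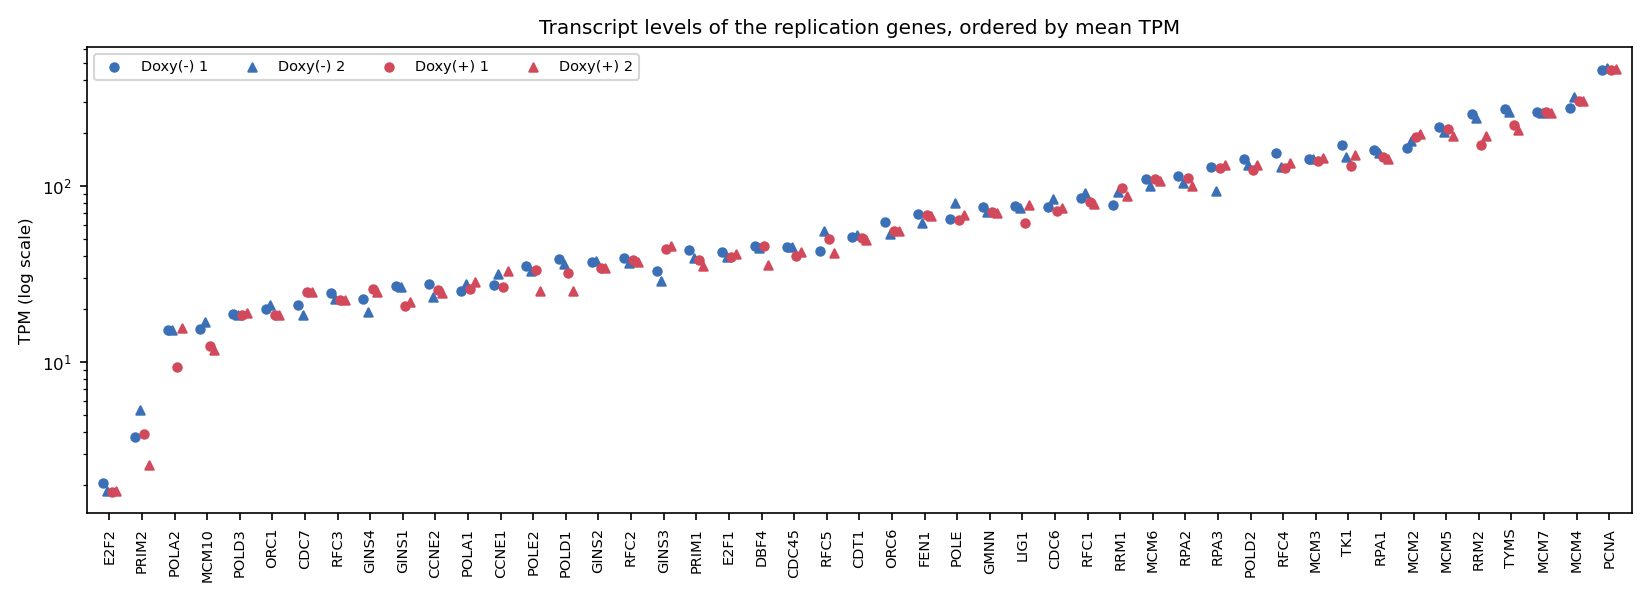
TPM of each measured replication gene in the 4 libraries (y axis, log scale), ordered along the x axis by the mean, with Doxy(-) in blue and Doxy(+) in red. Levels span from 1.90 TPM for E2F2 to 458 TPM for PCNA, and for most genes the differences between groups are small beside the differences between genes.

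Many of these genes, some of which were chosen for a role in E2F control, shared promoter letters. RefSeq promoter windows on GRCh38.p14, from 250 bases before to 50 bases after the annotated start, were at hand for 41 of the 48 genes. The E2F letters TTTGGCGC, TTTCCCGC, TTTGCCGC or TTTCGCGC, read on both strands, occurred in 20 of the 41 windows (48.8%), against 5.37% of 10430 promoters of tested genes and 3.33% of all 27305 promoters. Of the 27 matches, 21 lay within 100 bases of the start. Matches were found in 6 of 9 licensing genes, 4 of 8 polymerase genes, 3 of 7 firing genes, 3 of 9 clamp and strand-joining genes, 1 of 4 nucleotide genes and 3 of 4 E2F and cell cycle entry genes, UHRF1 among them. The CHR letters TTTGAA, read on both strands, occurred in 2 windows (4.88%), those of DBF4 and RRM1, against 9.52% of tested genes and 65.9% of the 41 promoters of mitosis genes described further on. CCAAT occurred in 53.7% against 36.6% of tested genes.

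Stretches of 28 bases around a match are shown for the 5 called genes that held E2F letters, GINS3, MCM2, GINS1, POLE and TYMS, and for 4 genes that held them and were not called, PCNA, E2F1, CDC6 and MCM6. Each is written 5′ to 3′ on the strand of the gene, from RefSeq on GRCh38.p14, with the E2F letters or their reverse complement in capitals. The MCM2 match overlaps a second one on the other strand, and so does that of MCM6, whose window held 4 matches in all.
GINS3 (chr16:58392456-58392483, plus strand): gtccccgggcGCGGGAAAcgagtttcaa
MCM2 (chr3:127598403-127598430, plus strand): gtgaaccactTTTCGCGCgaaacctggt
GINS1 (chr20:25407668-25407695, plus strand): gctttgttcgGCGCCAAAgcgcggagcg
POLE (chr12:132687343-132687370, minus strand): gggtgggagcGCGCCAAAtttctcccct
TYMS (chr18:657604-657631, plus strand): cgggacggccGCGGGAAAaggcgcgcgg
PCNA (chr20:5126664-5126691, minus strand): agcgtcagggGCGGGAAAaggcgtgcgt
E2F1 (chr20:33686388-33686415, minus strand): gcaaaaaggaTTTGGCGCgtaaaagtgg
CDC6 (chr17:40287876-40287903, plus strand): gccattcggaTTTGGCGCgagcgcggct
MCM6 (chr2:135876578-135876605, minus strand): gggctttgcaTTTGGCGCgaaatccctt

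Genes with the same letters rose, fell or were not called. Among the 19 tested genes with E2F letters 3 were called lower and 2 higher, with a median log2 fold change of -0.05. Among the 21 without them 6 were lower and 0 higher, with a median of -0.10. Over all genes tested 9.53% were called lower and 9.76% higher. The difference between the sets with and without E2F letters was not tested. The same letters GCGGGAAA stand in the windows of GINS3, which rose, of TYMS, which fell, and of PCNA, which was not called.

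The E-box CACGTG, the core that TFE3 and its relatives bind, occurred in 5 of the 41 windows (12.2%), against 10.2% of tested genes. Its longer form TCACGTGA, which contains it, occurred in 2 windows (4.88%), against 1.98% of tested genes. These are shown because one belongs to MCM2, a gene that rose, and the other to FEN1, which was not called. In MCM2 the E-box ends a few bases before the E2F letters printed above.
MCM2 (chr3:127598389-127598416, plus strand): ctttggtgggTCACGTGAaccacttttc
FEN1 (chr11:61792870-61792897, plus strand): ggcgagcaggTCACGTGAcgggagcgcg
GINS3 held no CACGTG in its window. A match is a description of letters, not of binding, and no binding data were analysed here.

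**Figure D4:**
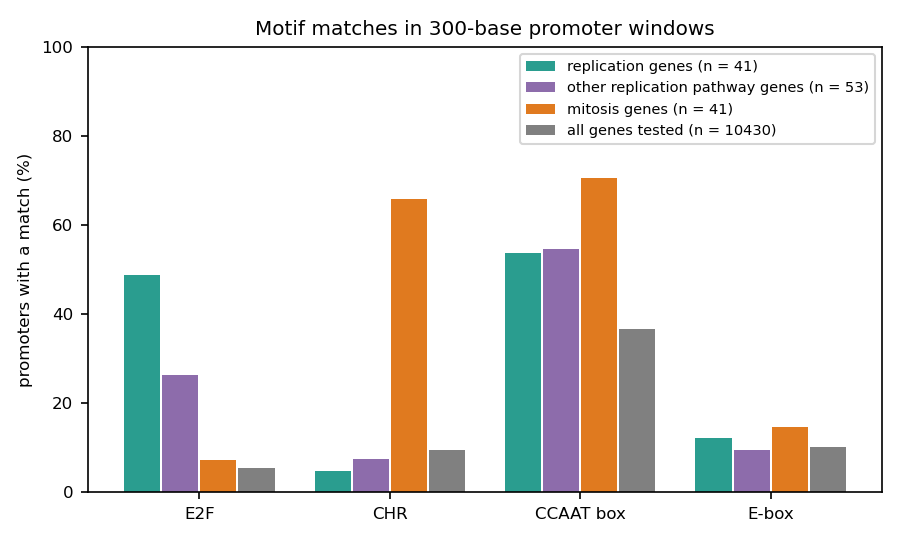
Share of promoter windows that hold at least 1 match (y axis, percent) to E2F letters, CHR (TTTGAA), the CCAAT box and the E-box CACGTG, for replication genes (n = 41), other replication pathway genes (n = 53), mitosis genes (n = 41) and all tested genes (n = 10430). E2F letters stand out in the replication genes (48.8%) and CHR in the mitosis genes (65.9%).

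Among the 11 licensing genes 1 rose (9.09%) and 0 fell, beside 9.76% and 9.53% of all genes, and 10 were not called. Their median log2 fold change was -0.02. MCM2 (ENSG00000073111.14, chr3:127598410-127622436 on hg38, plus strand), a subunit of the replicative helicase, was at 352 and 342 CPM in Doxy(-) against 408 and 410 CPM in Doxy(+). The groups did not overlap and the log2 fold change was 0.24 with an SE of 0.03 (adjusted p = 0.00455 by edgeR). The call held without any 1 of the libraries but was lost with limma on log2(TPM + 1), at 0.16 (adjusted p = 0.203). The other 5 subunits of the same hexamer, MCM3 to MCM7, lay between -0.13 and 0.07 and were not called. MCM7 was at 437 and 423 CPM against 425 and 423 CPM, and MCM3 at 274 and 262 CPM against 264 and 267 CPM, so in both the groups overlapped. MCM4 was at 99.8 and 119 CPM in Doxy(-) against 101 and 98.8 CPM in Doxy(+), and its direction hung on 1 library, since the log2 fold change was 0.002 without Doxy(-) 2 and -0.26 without Doxy(-) 1 (edgeR adjusted p = 0.0174).

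None of the loading factors was called. CDC6 was at 108 and 118 CPM in Doxy(-) against 112 CPM in both Doxy(+) libraries, and geminin (GMNN), the inhibitor of CDT1, at 51.1 and 48.7 CPM against 50.6 and 48.9 CPM. In neither did the groups separate, and the 95% intervals of the log2 fold change ran from -0.14 to 0.12 and from -0.15 to 0.14. ORC1, the cycling subunit of the origin recognition complex, and CDT1 were lower in both Doxy(+) libraries, with log2 fold changes of -0.20 each, but missed the threshold (edgeR adjusted p = 0.0661 and 0.0720).

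Of the 8 origin firing genes 3 were lower (37.5%) and 1 higher (12.5%), beside 9.53% and 9.76% of all genes, and 4 were not called. GINS3 (ENSG00000181938.14, chr16:58295080-58406147 on hg38, plus strand) was at 45.2 and 41.8 CPM in Doxy(-) against 60.7 and 62.0 CPM in Doxy(+), a log2 fold change of 0.50 with an SE of 0.06 (adjusted p = 0.00387 by edgeR). GINS1 (ENSG00000101003.12, chr20:25391008-25452700, plus strand), a partner in the same tetramer, was at 53.8 and 56.1 CPM in Doxy(-) against 42.7 and 43.3 CPM in Doxy(+), a log2 fold change of -0.35 with an SE of 0.06 (adjusted p = 0.00868 by edgeR). Thus 2 subunits of 1 complex moved apart, with no overlap between groups in either. GINS2 and GINS4 were not called, at -0.06 and 0.01. On the TPM scale GINS3 over GINS1 was 1.22 and 1.08 in Doxy(-) libraries against 2.10 and 2.09 in Doxy(+) libraries, and over coding transcripts alone it was 1.22 and 1.07 against 2.05 in both Doxy(+) libraries. The annotated starts of both genes in GENCODE lie upstream of the RefSeq starts behind the windows printed above, and exons of GINS1 overlap those of NINL on the other strand.

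CDC45 and MCM10, which join the helicase as it is activated, were lower. CDC45 (ENSG00000093009.11, chr22:19479457-19520612, plus strand) was at 51.6 and 51.9 CPM in Doxy(-) against 41.4 and 42.3 CPM in Doxy(+), a log2 fold change of -0.31 with an SE of 0.05 (adjusted p = 0.0130 by edgeR). MCM10 (ENSG00000065328.17, chr10:13161558-13211110, plus strand) was at 37.2 and 33.9 CPM against 29.7 and 28.8 CPM, a log2 fold change of -0.28 with an SE of 0.08 (adjusted p = 0.0494 by edgeR), just inside the threshold. The kinase CDC7 and its activator DBF4 were not called, at 0.06 and -0.10. With 1 Doxy(+) library left out GINS1, CDC45 and MCM10 lost their calls (edgeR adjusted p of 0.0560 to 0.205), and MCM10 also without Doxy(-) 1 (0.138), whereas GINS3 was called without any 1 of the libraries.

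Of the 9 polymerase and primase genes 3 were lower, beside 9.53% of all genes, 0 were higher and 6 were not called, with overlap between groups in 4 and a median log2 fold change of -0.20. POLE (ENSG00000177084.19, chr12:132623753-132687376, minus strand), the catalytic subunit of the leading strand polymerase, was at 246 and 247 CPM in Doxy(-) against 211 and 208 CPM in Doxy(+), a log2 fold change of -0.23 with an SE of 0.03 (adjusted p = 0.00607 by edgeR). POLD1 (ENSG00000062822.16, chr19:50384204-50418018, plus strand), the catalytic subunit of polymerase delta, was at 63.5 and 52.9 CPM against 45.4 and 43.9 CPM, a log2 fold change of -0.38 with an SE of 0.09 (adjusted p = 0.0395 by edgeR). Its accessory subunit POLD2 (ENSG00000106628.13, chr7:44114631-44124358, minus strand) was at 117 and 118 CPM against 101 and 107 CPM, a log2 fold change of -0.18 with an SE of 0.05 (adjusted p = 0.0481 by edgeR). In CPM both Doxy(+) libraries lay below both Doxy(-) libraries in each of these, as in 30.0% of all genes tested. The Doxy(-) CPM of POLD1 were further apart than those of POLE or POLD2. In TPM the groups of POLE overlapped, at 65.0 and 80.3 in Doxy(-) against 64.0 and 68.4 in Doxy(+). Over coding transcripts alone those of POLD2 overlapped, at 110 and 96.25 TPM against 89.4 and 102 TPM. Those of POLD1 were separate on both scales.

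The other polymerase and primase genes of this group were not called. POLD3 was at 37.7 and 34.4 CPM against 35.3 and 36.6 CPM, and POLA1, the catalytic subunit of the primer-making polymerase alpha, at 91.9 and 102 CPM against 94.5 and 97.2 CPM. POLE2, the second subunit of polymerase epsilon, had the highest log2 fold change of this group (0.02). It was at 24.3 and 26.5 CPM in Doxy(-) against 29.5 and 22.0 CPM in Doxy(+). The Doxy(+) libraries thus lay on either side of the Doxy(-) ones. The sign of POLE2 turned without Doxy(-) 1 (-0.05) and without Doxy(+) 1 (-0.21). The calls for POLE, POLD1 and POLD2 were each lost with a Doxy(+) library left out (edgeR adjusted p of 0.0525 to 0.284), POLD1 and POLD2 also without Doxy(-) 1 (0.0502 and 0.0708) and POLD2 without Doxy(-) 2 (0.0849).

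Of the 11 genes for the clamp, its loader, single-strand binding and strand joining, 1 fell (9.09%, beside 9.53% of all genes) and 10 were not called. Their median log2 fold change was -0.06. RFC4 (ENSG00000163918.12, chr3:186789880-186807058, minus strand), a small subunit of the clamp loader, was at 104 and 99.1 CPM in Doxy(-) against 87.9 and 86.5 CPM in Doxy(+), a log2 fold change of -0.22 with an SE of 0.05 (adjusted p = 0.0276 by edgeR). In TPM its groups overlapped, at 153 and 129 in Doxy(-) against 126 and 135 in Doxy(+). The call was lost without either Doxy(+) library (edgeR adjusted p = 0.133 and 0.150) and without Doxy(-) 1 (0.0635), and its exons overlap those of EIF4A2 on the other strand. The other 4 loader subunits lay between -0.10 and 0.001 and were not called. For RFC2 nearly as many reads as it was given, 1628.5 beside 1650.2, sat on unmatched copies of its transcripts, so its level is understated by that much.

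PCNA itself was at 395 and 406 CPM in Doxy(-) against 385 and 389 CPM in Doxy(+). Both Doxy(+) libraries were lower, but by 3.50%, and the 95% interval of the log2 fold change ran from -0.13 to 0.03 (edgeR adjusted p = 0.312). RPA2, a subunit of the single-strand binding protein RPA, was lower in both Doxy(+) libraries with a log2 fold change of -0.17 and missed the threshold (edgeR adjusted p = 0.0637). RPA3, the small subunit and the highest log2 fold change of this group, was at 39.8 and 31.1 CPM in Doxy(-) against 39.9 and 39.0 CPM in Doxy(+). The lone low library was Doxy(-) 2, and the log2 fold change of 0.16 became -0.01 without it and 0.34 without Doxy(-) 1 (edgeR adjusted p = 0.0259). LIG1, which joins Okazaki fragments, and FEN1, which trims them, overlapped between groups.

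Nucleotide supply held the most negative change that was called. Of its 4 genes 2 were lower, beside 9.53% of all genes, and 2 were not called. RRM2 (ENSG00000171848.16, chr2:10120698-10211725, plus strand), the cell cycle dependent small subunit of ribonucleotide reductase, was at 264 and 269 CPM in Doxy(-) against 194 and 204 CPM in Doxy(+). It fell by 25.3%, a log2 fold change of -0.42 with an SE of 0.04 (adjusted p = 0.00132 by edgeR). TYMS (ENSG00000176890.16, chr18:657653-673578, plus strand), thymidylate synthase, was at 212 and 203 CPM against 162 and 159 CPM and fell by 22.6%, a log2 fold change of -0.37 with an SE of 0.04 (adjusted p = 0.00231 by edgeR). Both were called without any 1 of the libraries. Exons of TYMS overlap those of TYMSOS and ENOSF1 on the other strand, and it is not stated whether the counting used the strand.

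RRM1, the large subunit of the same reductase, went the other way without passing the test, at 155 and 164 CPM in Doxy(-) against 175 and 167 CPM in Doxy(+), a log2 fold change of 0.10 (edgeR adjusted p = 0.206). RRM2 over RRM1 in TPM was 3.30 and 2.65 in Doxy(-) libraries against 1.75 and 2.18 in Doxy(+) libraries, and over coding transcripts alone it was 1.29 and 1.28 against 0.890 and 0.955. Either way the ratio was lower in both Doxy(+) libraries. TK1, thymidine kinase, was at 169 and 141 CPM against 131 and 140 CPM and was not called (edgeR adjusted p = 0.180), but it was without Doxy(-) 2, where the log2 fold change was -0.32 (edgeR adjusted p = 0.00617).

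None of the 4 measured E2F and cyclin E genes was called by edgeR, with 0 past an unadjusted p under 0.05 and 0 called by DESeq2, and in all 4 the groups overlapped. E2F1, the activator of S-phase transcription, was at 70.7 and 66.3 CPM in Doxy(-) against 64.5 and 66.8 CPM in Doxy(+), a log2 fold change of -0.06 with a 95% interval from -0.20 to 0.08. CCNE1, cyclin E1, was at 27.4 and 30.6 CPM against 28.1 and 31.5 CPM, a log2 fold change of 0.04 with an interval from -0.19 to 0.27 and with signs that turned without Doxy(-) 1 (-0.04) or Doxy(+) 2 (-0.05). CCNE2 and E2F2 lay at 0.03 each.

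A further 64 genes of the replication pathway, not among the 48, were named from textbook roles. This list and those that follow were chosen with earlier results of these data known. Of the 64, 7 were lower (10.9%) and 2 higher (3.12%), beside the 9.53% and 9.76% of all genes. Their median log2 fold change was -0.08. TICRR, which helps CDC45 load, was at 44.1 and 40.4 CPM in Doxy(-) against 30.5 and 31.7 CPM in Doxy(+), a log2 fold change of -0.44 with an SE of 0.07 (adjusted p = 0.00933 by edgeR). CHTF18, of an alternative clamp loader, was at 58.2 and 52.7 CPM against 40.5 and 35.0 CPM, a log2 fold change of -0.55 with an SE of 0.09 (adjusted p = 0.00951 by edgeR). DBF4B, a second activator of CDC7, and DTYMK, thymidylate kinase, were at -0.32 and -0.29 (edgeR adjusted p = 0.0177 and 0.0207), the former at 37.3 and 37.6 CPM against 30.1 and 29.9 CPM and the latter at 76.5 and 72.1 CPM against 59.4 and 62.2 CPM. These 4 were the lower genes of the list with the smallest p. In all 4 both Doxy(+) libraries lay below both Doxy(-) libraries, as in 30.0% of all genes tested. Exons of TICRR and CHTF18 overlap those of KIF7 and RPUSD1 on the other strand.

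The 2 higher genes of that list stand beside members already described. POLE4, a small subunit of polymerase epsilon, was at 64.9 and 61.2 CPM in Doxy(-) against 75.2 and 72.5 CPM in Doxy(+), a log2 fold change of 0.23 with an SE of 0.06 (adjusted p = 0.0394 by edgeR). RRM2B, the p53-inducible small subunit of ribonucleotide reductase, was at 20.5 and 19.1 CPM against 27.8 and 24.1 CPM, a log2 fold change of 0.39 with an SE of 0.10 (adjusted p = 0.0470 by edgeR). RRM2 over RRM2B in TPM was 22.3 ± 3.25 (SD, n = 2) in Doxy(-) and 10.7 ± 4.14 (SD, n = 2) in Doxy(+). Neither call was firm, since DESeq2 made neither and both were lost without Doxy(-) 2 or either Doxy(+) library (edgeR adjusted p of 0.0506 to 0.218), RRM2B also without Doxy(-) 1 (0.0603). CHTF18 was called without any 1 of the libraries, TICRR was lost without Doxy(+) 1 (0.0610), and DBF4B and DTYMK without either Doxy(+) library (0.0701 to 0.134).

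Genes of mitosis, the nearest list in the cell cycle, differed from the replication genes in their counts. Of 47 such genes, sharing none with the 48, 42 were called lower (89.4%) and 0 higher, beside the 9.53% and 9.76% of all genes. All 47 had a negative sign and the median log2 fold change was -0.36, with values from -0.62 to -0.14. The most negative replication gene that was called, RRM2 at -0.42, would lie within that range, and the median replication gene at -0.06 lies outside it. The difference between the lists was not tested. Their promoters differed as described above, with E2F letters in 7.32% and CHR letters in 65.9% of 41 mitosis genes. Of 13 regulators of G1, 5 were lower (38.5%) and 2 higher (15.4%), beside the 9.53% and 9.76% of all genes, and 6 were not called. Their median log2 fold change was -0.10. Among them CDKN1A, the CDK inhibitor p21, rose from 120 and 110 CPM to 233 and 219 CPM (log2 fold change 0.97, SE 0.06, with an adjusted p of 0.000283 by edgeR), CCND1, cyclin D1, fell from 164 and 163 CPM to 88.6 and 93.6 CPM (-0.84, SE 0.04), and MYC fell from 213 and 237 CPM to 130 and 131 CPM (-0.78, SE 0.06). All 3 moved further than any replication gene that was called, and their part in the values above was not tested.

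**Figure D5:**
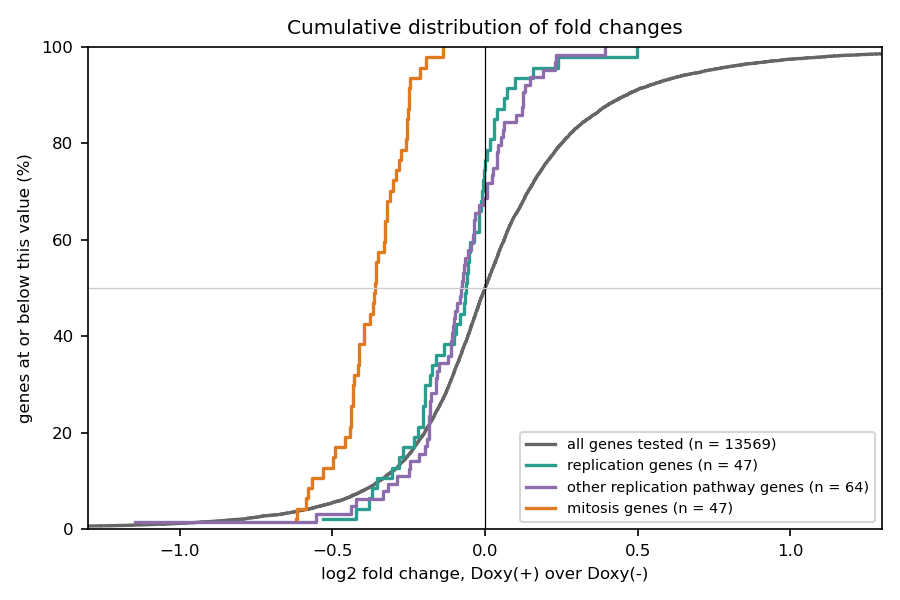
Cumulative distribution of log2 fold changes, Doxy(+) over Doxy(-) (x axis), with the percentage of genes at or below each value (y axis), for all 13569 tested genes, the 47 replication genes, 64 other replication pathway genes and 47 mitosis genes. The replication genes stay close to 0, with a median of -0.06, and the mitosis curve lies wholly below 0, with a median of -0.36.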

How the data were processed

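Per the labels, RNA was taken with TRIzol and a TruSeq Stranded mRNA kit gave the libraries. The submitters' processing notes name Trim Galore 0.6.6, cutadapt 2.5, STAR 2.7.9a and hg38, and the study's methods name RSEM and DESeq2, but the tables deposited by the authors have the columns that kallisto writes. The estimated counts deposited by the authors were made by dividing reads between Ensembl transcripts, without normalization. The TPM values deposited by the authors were made from those reads by scaling for transcript length, and sum to 1000000 per library. The quantifier's version and its use of strand are not given in the sources used here.

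Of 180253 transcript identifiers, 150691 (83.6%) matched GENCODE 44, giving 34080 genes. Unmatched identifiers held 9.66% to 9.89% of reads and were left out. Estimated counts were summed per gene, rounded and compared by edgeR 4.0.16 under R 4.3.3 (TMM, filterByExpr, quasi-likelihood test, group as the only term), with Benjamini-Hochberg adjustment over 13569 genes, an adjusted p under 0.05 as the threshold and a common biological coefficient of variation of 6.53%. CPM use the TMM-scaled library. Exons of 12 members overlap those of another gene, so their reads may be divided. With 2 libraries a group both values are given. Replicates are separate libraries per the labels, which do not say whether they are separate cultures, so p-values measure the spread between these libraries. The script was tested on simulated data.

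Same-numbered libraries did not deviate together (correlation -0.0147), so the numbers were not taken as pairs. The members and lists were chosen with earlier results of these data known. Values in every library are given for members called, for the member with the highest TPM and the one with the highest fold change in each role group, for the 4 lower and 4 higher other pathway genes with the smallest p (only 2 were higher), and for TFE3, CDKN1A, CCND1 and MYC. Other members were added after their values were seen. Alternatives were RLE scaling, no filter, a mean CPM of at least 1, unmatched copies added, DESeq2 1.42.0, limma 3.58.1 on log2(TPM + 1) and log2(TPM + 0.1) for genes with a mean TPM of at least 1, an adjusted p under 0.01, a replicate block, and each library left out. Promoter letters were searched by script in RefSeq windows, and the printed stretches were checked against hg38.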

Additional observations from a re-analysis of the deposited data

How the results depend on the processing

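No replication gene passed both of the study's limits under any alternative. The median log2 fold change of the 47 lay between -0.08 and -0.06 in each. The median of all genes, 0.001 in the main fit, was 0.032 and 0.035 with limma, 0.017 with no filter and 0.013 with DESeq2. In the remaining alternatives it lay between -0.002 and 0.004. RLE scaling, either filter and the replicate block gave the same 11 calls (9 lower and 2 higher with the replicate block), added copies lost MCM10, and DESeq2 lost MCM10 and POLD2. RRM2, TYMS and GINS3 were called under every alternative. MCM2 lost its call only with limma (0.163 and 0.164, adjusted p = 0.203 and 0.208). With limma on log2(TPM + 1) or log2(TPM + 0.1), 2.3% and 2.25% of all genes were called lower and 4.49% and 4.43% higher. Lower calls were then 2 and 2 among members, 0 and 0 among the other pathway genes and 12 and 12 among mitosis genes. Higher calls were 1 and 1 among members and 1 and 1 among the other pathway genes. At an adjusted p under 0.01 there were 4 lower members, 2 lower and 0 higher other pathway genes. Of all genes 4.08% were lower and 4.58% higher at that limit. DESeq2 called 0 of the other pathway genes higher, beside 5.08% of all genes. The replicate numbers were also crossed as a block, a setting chosen after seeing the data. It was chosen because the correlation was -0.222 over the genes at 10 CPM or more. The crossed block gave 7 lower and 2 higher members and 6 lower and 0 higher other pathway genes. Of all genes it gave 8.35% lower and 8.68% higher.

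Leaving out 1 library gave 2 to 9 lower and 2 to 3 higher members, 2 to 8 lower and 0 to 2 higher other pathway genes and 27 to 41 lower mitosis genes. The lowest member counts came without either Doxy(+) library, when all genes called lower also fell from 9.53% to 4.05% and 4.61%. In these fits a group of 1 library is assumed to vary like the other group. With 1 library left out the sign turned for 17 of the 36 members that were not called, all within 0.16 of 0 on the log2 scale, and for 0 of the 11 called. They included MCM4 (0.038 and 0.038 with limma, -0.26 to 0.002 with 1 library left out), POLE2 (-0.22 and -0.23, and -0.21 to 0.22), RPA3 (-0.014 to 0.34) and CCNE1 (-0.045 to 0.12). The cause was not tested. The low number of assigned reads limits PRIM2 (47.1 reads) most.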

Other observations

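The mix of transcripts changed in 1 replication gene, a pattern found after its values were seen and given here with no test. POLE2-201, a protein-coding transcript of the polymerase epsilon subunit POLE2, held 24.4% and 25.6% of the gene's TPM in Doxy(-) 1 and 2 and 51.8% and 49.7% in Doxy(+) 1 and 2. The summed level of the gene did not separate the groups. POLE2-206, also protein-coding, held 25.8% and 36.6% against 21.9% and 21.5%, and POLE2-210, a nonsense-mediated decay transcript, 23.3% and 25.0% against 11.7% and 12.4%. Of 44 replication genes with at least 1000 reads in all, POLE2 was the only one with a transcript, of at least 40 reads, whose share moved by more than 20 percentage points with no overlap between groups, against 48 of 8011 genes (0.599%). The shares are the authors' quantifier's division of shared reads, and POLE2-201 rested on 129 and 146 reads in Doxy(-) and 253 and 192 reads in Doxy(+).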
